A study of Mus musculus with 6 samples.

Results

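UDP-glucuronosyltransferases and glutathione transferases are the liver's main conjugating enzymes. A row was taken as a member when its gene symbol began with Ugt and a digit, or with Gst, one of the class letters a, k, m, o, p, t or z, and a digit. In all 6 count tables this gave 43 members among 24982 rows. Of these, 39 had at least 10 counts summed over the libraries, and 37 passed the filter on low counts and were tested. Gsto2 (13 counts) and Ugt1a10 (64 counts) reached 10 summed counts and were not tested. Ugt1a2 (8 counts) and Gstt4 (1 count) had fewer, and Ugt2a1 and Ugt2a2 had 0. The members just inside the 10-count limit were Gsto2 and Ugt8a (45 counts), and those just outside it were Ugt1a2 and Gstt4.

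Male C57BL/6NJ mice were given a high fat diet plus sugar water (HFHS, n = 3) or chow (n = 3), and the liver was sampled. Each diet lasted 54 weeks, per the series text, and no genotype, other agent or age is stated. The labels do not say that each library came from its own animal. The p-values then measure only how far these libraries spread, which may be technical. Below, HFHS livers and chow livers name the libraries of each group. Polyadenylated RNA of whole liver was sequenced, so fewer cells of a type and less RNA per cell cannot be told apart.

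Glucuronosyltransferases sit in the membrane of the endoplasmic reticulum and join glucuronic acid, carried by UDP-glucuronate, to bilirubin, steroids, bile acids and drugs, which then leave in bile or urine. Glutathione transferases are mostly soluble enzymes that join glutathione to reactive electrophiles, and their classes are named by Greek letters. Many of these genes arose by tandem duplication and lie in clusters, and in liver several are under the control of the receptors CAR and PXR and of the stress regulator NRF2.

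Levels are given as counts per 1000000 (CPM) with TMM-scaled library sizes, in the order of replicates 1, 2 and 3. Libraries held 16565335 to 20585366 counts in genes. A gene was called higher or lower at an adjusted p under 0.05 (edgeR quasi-likelihood F test, Benjamini-Hochberg over all 12949 genes tested). HFHS replicate 2 stood apart from the other HFHS libraries: its log2 CPM correlated across genes with HFHS replicates 1 and 3 at Pearson r = 0.961 and 0.957, against 0.982 between those replicates. Its TMM factor was 1.26, against 1.02 and 1.01 in the other HFHS libraries and 0.899 to 0.945 in chow. Where leaving it out moved a member's log2 fold change by over 1.5 times, the value without it is given beside the member. Where it changed only the call, that change is stated. The 5 hepatocyte markers (Alb, Apoa1, Ttr, Hnf4a and Cps1) summed to 32667 to 86661 CPM in HFHS livers, against 86862 to 107204 CPM in chow livers, and none was at 0.

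Several members are near copies of each other, which bears on how reads could be shared between rows. Of 90 pairs compared within subfamilies, 11 had at least 90% identical coding sequence, and these pairs held 16 members. The pairs below were chosen because they show how few bases could assign a read to one copy and not to the other. Each line is a 60-base window of the coding sequence on the gene's own strand (GENCODE vM21, build mm10). Among windows without gaps, it is the one where the copies differ most, so the others hold as many differences or fewer. Capitals mark bases that differ between the copies.
Gsta1: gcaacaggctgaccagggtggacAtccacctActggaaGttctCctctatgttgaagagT
Gsta2: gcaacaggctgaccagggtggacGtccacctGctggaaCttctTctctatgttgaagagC
Gstp1: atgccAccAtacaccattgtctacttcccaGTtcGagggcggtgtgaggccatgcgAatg
Gstp2: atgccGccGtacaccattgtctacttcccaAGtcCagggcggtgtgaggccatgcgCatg
Ugt2b5: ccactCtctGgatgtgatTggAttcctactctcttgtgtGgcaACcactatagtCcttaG
Ugt2b38: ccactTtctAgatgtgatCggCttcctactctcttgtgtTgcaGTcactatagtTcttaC
The Gsta1 and Gsta2 windows cover coding bases 449 to 508 and hold 5 of the 16 differences in the whole alignment, where the copies were 97.6% identical. Those of Gstp1 and Gstp2 cover coding bases 1 to 60 and hold 6 of 12 differences (98.1% identical). In Ugt2b5 and Ugt2b38 they cover coding bases 1467 to 1526 and hold 9 of 47 differences (97.0% identical). Ugt1a6a and Ugt1a6b were 98.4% identical, Ugt3a1 and Ugt3a2 93.2%, and Ugt1a9 and Ugt1a10 95.3%. The longest coding sequences annotated to Ugt1a6a and Ugt1a7c were identical. That Ugt1a7c transcript may be a model that reads through into the exons of Ugt1a6a. The pairs of Ugt1a7c with Ugt1a6a and Ugt1a6b are among the 11, and may not be true copies. Among all 43 members, including those with fewer than 10 counts, 14 shared no stretch of 50 transcript bases with another gene. Another 14 shared at least 50% of their 50-base stretches. The rule by which reads fitting several genes were counted is not given in the sources used here, so levels of single copies are uncertain and sums over copies are given beside them.

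Of the 37 members tested, 11 fell in HFHS livers, 1 rose and 25 did not pass the test. Those that fell were 6 glucuronosyltransferases (Ugt1a6a, Ugt1a6b, Ugt2a3, Ugt2b5, Ugt2b36 and Ugt3a1) and 5 glutathione transferases (Gsta4, Gstm6, Gsto1, Gstt2 and Gstt3). The 11 that fell are 29.7% of the members tested, beside 3.61% of all genes tested that were called lower. The 1 called higher, Ugt8a, entered the test only through its HFHS counts, and stands beside 11.0% of all genes called higher. At an unadjusted p under 0.05, 17 members were lower, beside 12.8% of all genes, and 1 was higher, beside 19.5%. The median log2 fold change was -0.63 over the members and -0.02 over all genes tested, and 28 of the 37 members had a negative one. All 3 HFHS libraries lay below all 3 chow libraries in 18 members (48.6%), beside 18.0% of all genes tested. They lay above in 1 member, beside 21.5% of all genes.

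The scaling of libraries moves these counts. With library size alone in place of TMM, the median of all genes shifted by 0.27 on the log2 scale, 4 members were called lower (Gstm6, Gstt3, Ugt2a3 and Ugt3a1) and 1 higher, and the members' median was -0.37 with 25 negative. The call counts also rest on single libraries. The number called lower was 0 without chow replicate 3 (14 at an unadjusted p under 0.05), 1 without chow replicate 2 (16 unadjusted), 5 without chow replicate 1 and 5 without HFHS replicate 1. Without HFHS replicate 2 it was 12, of which 8 are among the 11. The number of all genes called lower moved too, from 468 to 2 without chow replicate 3 and 113 without chow replicate 2. It was 177 without chow replicate 1, and 293, 391 and 772 without HFHS replicates 1, 2 and 3 in turn. The 11 members called lower had a negative fold change in each of the 13 alternatives run. This outcome was close to fixed: the 11 were picked as lower, their groups did not overlap, and the alternatives reuse the same libraries. It adds no support to the calls.

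**Figure D1:**
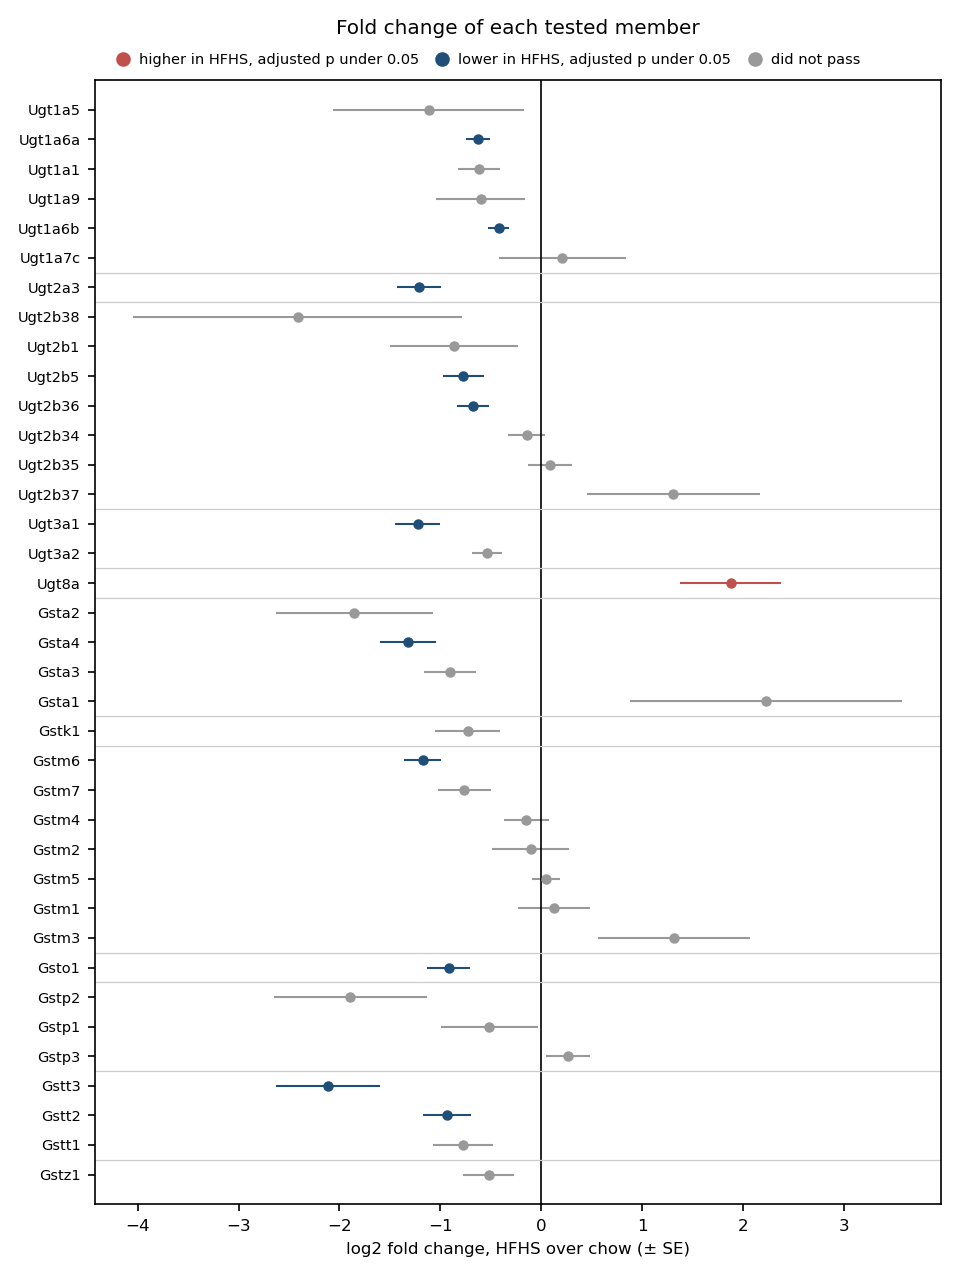
Log2 fold change of HFHS over chow livers (horizontal axis) for the 37 members tested, with bars of 1 standard error, by subfamily. The 11 members called lower lie between -2.11 and -0.42, and the 1 called higher, Ugt8a, lies at 1.88.

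The members' summed level gives their share of the scaled library, which is relative to the other genes and not an amount of RNA per liver. Together they came to 8350.5 ± 614 CPM in HFHS livers and 12397 ± 455 CPM in chow livers (SD, n = 3 each), a ratio of 0.674. The glutathione transferases summed to 4834 ± 439.7 CPM in HFHS livers and 6983 ± 743 CPM in chow livers, a ratio of 0.692. The glucuronosyltransferases summed to 3517 ± 612 CPM in HFHS livers and 5415 ± 289.8 CPM in chow livers, a ratio of 0.649. In these sums every HFHS library lay below every chow library. With library size only that still held for all members and for the glucuronosyltransferases, and not for the glutathione transferases, whose sum was 4539, 6703 and 4828 CPM in HFHS livers, against 6656, 5790.1 and 6658 CPM in chow livers. Exact permutation tests of 3 libraries against 3 cannot go below p = 0.1, so none is quoted.

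By subfamily, the ratio was lowest for Ugt2a (0.431, here Ugt2a3 alone), Gstt (0.467), Gsta (0.524) and Gsto (0.531). It was 0.632 for Ugt1a, 0.639 for Ugt3a, 0.680 for Ugt2b and 0.697 for Gstz, and HFHS livers lay below chow livers in all 3 libraries of each of these. With library size only the groups overlapped for Gstz as well. The groups overlapped for Gstk (0.603), Gstp (0.715) and Gstm (1.06). The Gstm sum was 1239, 3059 and 1479 CPM in HFHS replicates 1, 2 and 3, against 2002, 1653 and 1799 CPM in chow replicates 1, 2 and 3. HFHS replicate 2 was the highest of the 6 libraries, and the other HFHS libraries lay below every chow library. For Ugt8a alone the ratio was above 1 with the groups apart, at 3.78 between very low levels.

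**Figure D2:**
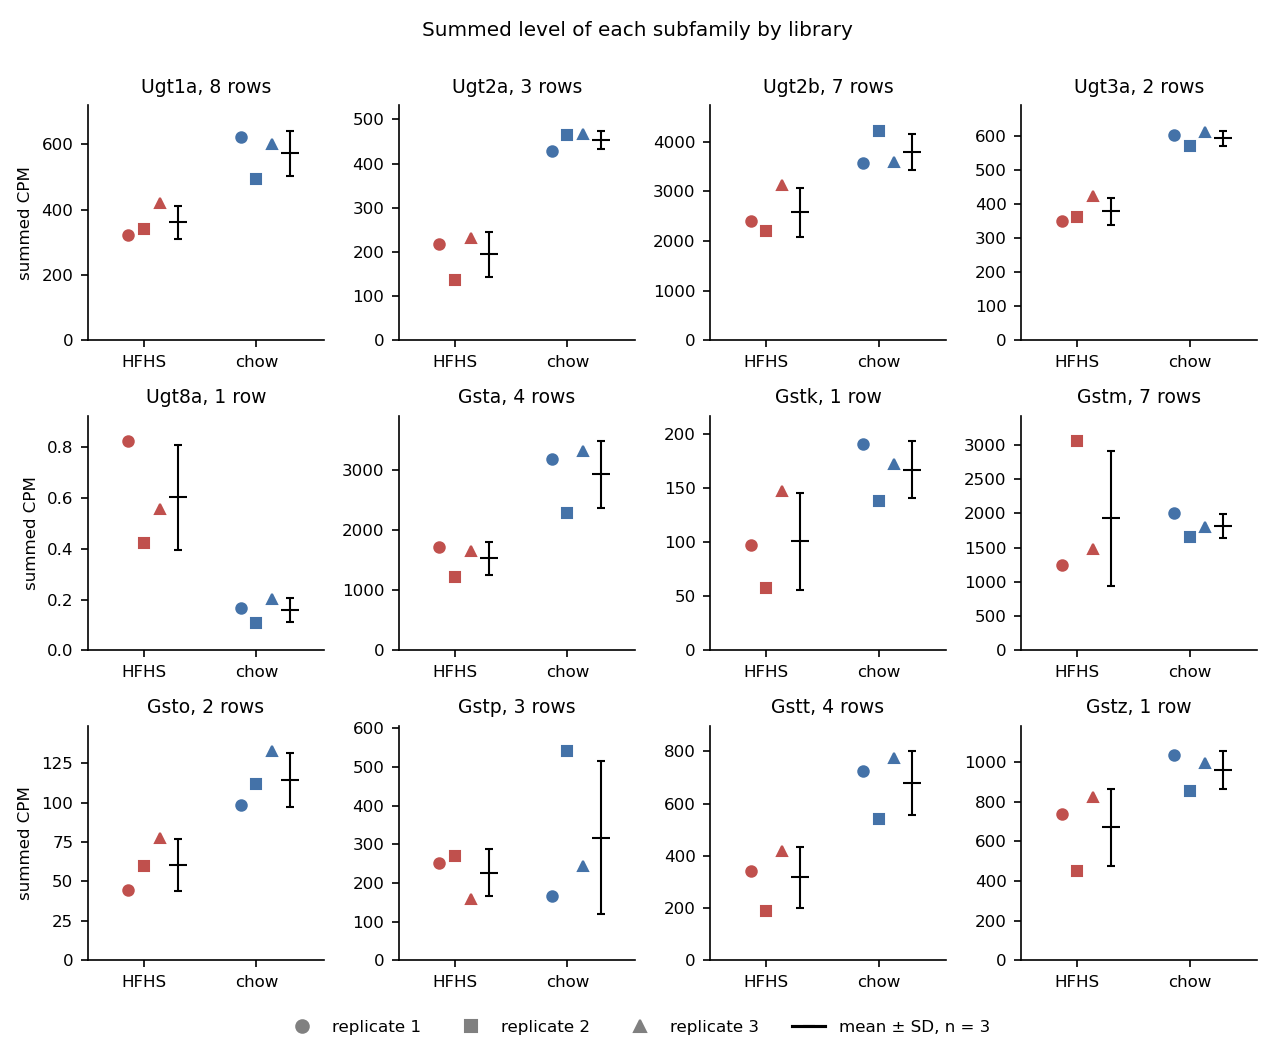
Summed level in CPM (vertical axis, each panel starting at 0) of each subfamily in the 3 HFHS and 3 chow liver libraries, with points for libraries and bars for the mean ± SD. The groups are apart in most panels and overlap in Gstk, Gstm and Gstp, with HFHS replicate 2 high in Gstm and chow replicate 2 high in Gstp.

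Levels per kb of transcript allow for transcript length, but not for bases shared with other genes. On this scale Gstm1 had the highest mean level in HFHS livers. It was at 1796 ± 974 CPM per kb in HFHS livers, against 1641 ± 131 CPM per kb in chow livers (SD, n = 3 each). Gsta3 had the highest mean in chow livers, at 996 ± 226 CPM per kb in HFHS livers, against 1863 ± 359.9 CPM per kb in chow livers. Ugt2b36 had the highest mean of the glucuronosyltransferases in both, at 346 ± 20.3 CPM per kb in HFHS livers, against 552 ± 13.6 CPM per kb in chow livers. Ugt2b5 came next, at 303 ± 45.3 CPM per kb in HFHS livers, against 518 ± 86.8 CPM per kb in chow livers. The spread of Gstm1 in HFHS livers covers its difference from Gsta3 there. Other genes hold 41.7% of the 50-base stretches of Ugt2b5 and 0.3% of those of Ugt2b36. For Gstm1 the share was 33.0%, and for Gsta3 it was 0. The rule for shared reads is unknown here, so these ranks are uncertain.

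The Ugt1a genes share one locus on chromosome 1 (chr1:88055388-88219004 for Ugt1a10 at one end and chr1:88211959-88218997 for Ugt1a1 at the other), where each has its own first exon and all join the same last exons. Bases shared with other genes make up 50.3% to 60.6% of the exon bases annotated to each of them, and how reads there were counted is not known here. Of 6 members tested, Ugt1a6a and Ugt1a6b fell. Both code for enzymes that handle small planar phenols. Ugt1a6a (chr1:88134809-88218997) had 33.9, 31.1 and 34.7 CPM in HFHS livers, against 47.9, 57.9 and 48.2 CPM in chow livers (log2 fold change -0.63 ± 0.12 SE, edgeR adjusted p = 0.0165). Ugt1a6b (chr1:88103252-88219003) had 36.8, 35.5 and 39.2 CPM in HFHS livers, against 46.5, 52.9 and 50.004 CPM in chow livers (log2 fold change -0.42 ± 0.10 SE, edgeR adjusted p = 0.0329). The HFHS libraries of both lay below all chow libraries and close to each other. Summed, Ugt1a6a and Ugt1a6b came to 70.4 ± 3.64 CPM in HFHS livers and 101.1 ± 8.62 CPM in chow livers (SD, n = 3 each). Ugt1a1, the enzyme that conjugates bilirubin, had 175, 231 and 276 CPM in HFHS livers, against 382, 294 and 372 CPM in chow livers and did not pass the test (log2 fold change -0.62 ± 0.21 SE, edgeR adjusted p = 0.0820), although its groups did not overlap. It was called lower by DESeq2 and without HFHS replicate 3. Ugt1a5 had 64.9, 2.73 and 51.6 CPM in HFHS livers, against 115, 57.9 and 85.1 CPM in chow livers, with HFHS replicate 2 far below the rest (log2 fold change -1.12 ± 0.95 SE, edgeR adjusted p = 0.466). Ugt1a9 had 12.2, 39.0 and 16.8 CPM in HFHS livers, against 29.5, 28.7 and 45.4 CPM in chow livers, where HFHS replicate 2 was instead the highest HFHS library, and its log2 fold change of -0.60 did not pass. Without HFHS replicate 2 Ugt1a9 was called lower, at -1.24 and an edgeR adjusted p of 0.0238, and Ugt1a5 was at -0.55 and was not called. Ugt1a7c stayed at 1.62 CPM or less in every library, with a log2 fold change of 0.21 ± 0.63, and -0.77 without HFHS replicate 2. The call of Ugt1a6a was lost without chow replicate 2 or 3, and that of Ugt1a6b without any 1 chow replicate and without HFHS replicate 1 or 2. With library size alone both were lost, at an edgeR adjusted p of 0.111 for Ugt1a6a and 0.424 for Ugt1a6b.

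The Ugt2 genes conjugate steroids, bile acids and many drugs. In the mouse the Ugt2b genes lie together on chromosome 5, and 7 of them were tested, of which Ugt2b5 and Ugt2b36 fell. Ugt2b36 (chr5:87065927-87092555) had 629, 634 and 697 CPM in HFHS livers, against 1047, 1065 and 1014 CPM in chow livers (log2 fold change -0.67 ± 0.16 SE, edgeR adjusted p = 0.0314). Ugt2b5 (chr5:87124960-87140318) had 466, 607 and 616 CPM in HFHS livers, against 853, 1147 and 886 CPM in chow livers (log2 fold change -0.77 ± 0.20 SE, edgeR adjusted p = 0.0444). Neither gene's groups overlapped, and the gap was wider relative to the spread in Ugt2b36. Ugt2b5 and its near copy Ugt2b38 together came to 566 ± 84.5 CPM in HFHS livers and 974 ± 181 CPM in chow livers (SD, n = 3 each). Ugt2a3 (chr5:87324972-87337195), the one Ugt2a gene with counts, fell further, at 217, 137 and 231 CPM in HFHS livers, against 428, 465 and 466 CPM in chow livers (log2 fold change -1.21 ± 0.22 SE, edgeR adjusted p = 0.0159). HFHS replicate 2 was its lowest library, and the other HFHS libraries were also below every chow library.

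The other Ugt2b genes did not pass the test. Ugt2b1 had 421, 107 and 801 CPM in HFHS livers, against 674, 992 and 754 CPM in chow livers (log2 fold change -0.87 ± 0.64 SE, edgeR adjusted p = 0.393), so that HFHS replicate 3 lay within the chow range and replicate 2 far below it. Its log2 fold change was -0.39 without HFHS replicate 2 and -1.62 without HFHS replicate 3, and was not called in either. Ugt2b34, at log2 fold change -0.15 ± 0.18, and Ugt2b35, at 0.09 ± 0.22, had overlapping groups, and came to -0.02 for Ugt2b34 and -0.06 for Ugt2b35 without HFHS replicate 2. The remaining Ugt2b rows were low: Ugt2b37 had 8.41, 0.577 and 7.43 CPM in HFHS livers, against 1.78, 3.19 and 1.55 CPM in chow livers, and Ugt2b38 had 2.22, 0.0769 and 5.08 CPM in HFHS livers, against 1.00, 35.4 and 1.48 CPM in chow livers. One library carries the value of Ugt2b38: its log2 fold change was -2.41, and 0.96 without chow replicate 2. Ugt2b37, at log2 fold change 1.31 ± 0.86, was called higher in a fit without HFHS replicate 2, at 1.86. The calls of Ugt2a3, Ugt2b5 and Ugt2b36 were lost when chow replicate 2 or chow replicate 3 was left out. Those of Ugt2b5 and Ugt2b36 were also lost without HFHS replicate 1 or chow replicate 1, and that of Ugt2b5 without HFHS replicate 3. Over the 13 alternatives (edgeR, DESeq2 and limma) the highest adjusted p was 0.162 for Ugt2b5, 0.117 for Ugt2b36 and 0.0772 for Ugt2a3.

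The Ugt3a genes, on chromosome 15, code for enzymes whose human relatives use other UDP-sugars. Ugt3a1 (chr15:9276888-9315032) fell, at 46.5, 33.6 and 64.3 CPM in HFHS livers, against 106, 117 and 114 CPM in chow livers (log2 fold change -1.23 ± 0.22 SE, edgeR adjusted p = 0.0163). Its near copy Ugt3a2 (chr15:9335550-9370955) had 303, 329.7 and 360.4 CPM in HFHS livers, against 495, 452 and 496 CPM in chow livers and did not pass the test (log2 fold change -0.54 ± 0.15 SE, edgeR adjusted p = 0.0505). Both rows had all HFHS libraries below all chow libraries, and their sum was 379 ± 40.2 CPM in HFHS livers and 594 ± 21.8 CPM in chow livers (SD, n = 3 each). The call of Ugt3a1 was lost when chow replicate 2 or chow replicate 3 was left out, and its highest adjusted p over the edgeR, DESeq2 and limma alternatives was 0.0772. Ugt3a2 was called lower by DESeq2, with RLE scaling and without HFHS replicate 2 or 3.

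Ugt8a (chr3:125865271-125938619), which makes galactosylceramide for myelin and is no drug-conjugating enzyme, was the 1 member that rose. It passed the filter on low counts only through the HFHS libraries, so that it had to differ between the groups to be tested. It had 16, 11 and 10 counts in HFHS livers, against 3, 2 and 3 counts in chow livers, or 0.826, 0.423 and 0.558 CPM in HFHS livers, against 0.167, 0.110 and 0.202 CPM in chow livers (log2 fold change 1.88 ± 0.50 SE, edgeR adjusted p = 0.0460). These chow counts stand at or under the 3 counts taken as the floor of a library. Over the groups, 37 counts in HFHS livers against 8 in chow livers gave a ratio of 3.73, with a 95% exact interval of 1.71 to 9.27 that covers counting error only. The call held in 3 of 13 alternatives, and was lost without HFHS replicate 1 or 3 and without any 1 chow replicate, and its highest adjusted p over the edgeR, DESeq2 and limma alternatives was 0.141.

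**Figure D3:**
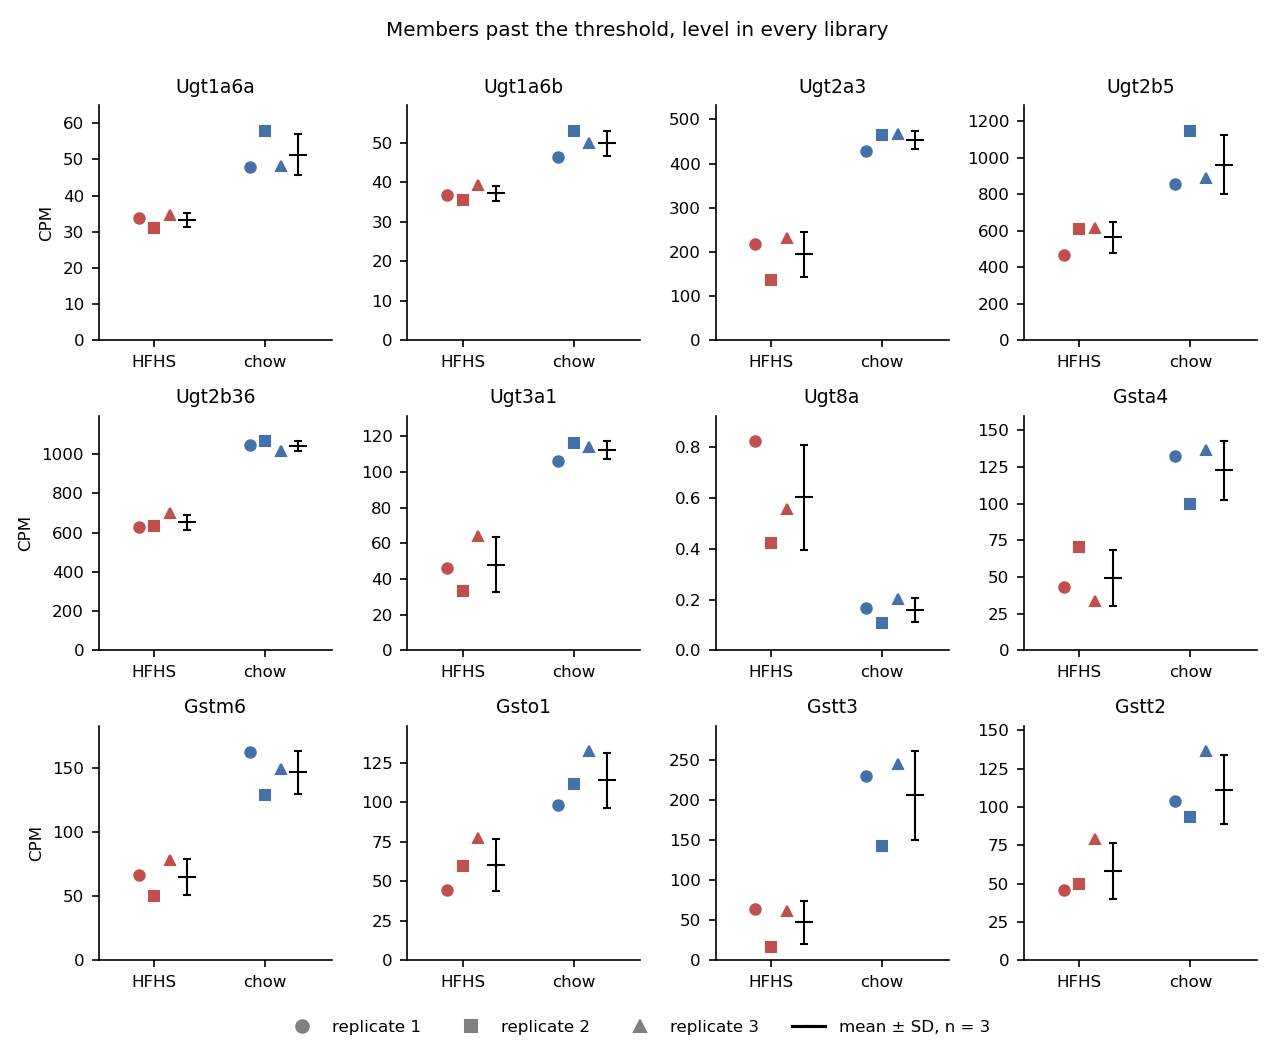
Level in CPM (vertical axis, each panel starting at 0) of the 12 members called lower or higher, in 3 HFHS and 3 chow liver libraries, with points for libraries and bars for the mean ± SD. In the 11 members called lower the HFHS points lie below the chow points, with Gstt3 reaching down to 16.5 CPM in HFHS replicate 2, and in Ugt8a they lie above, all under 1 CPM.

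Among the alpha-class glutathione transferases, Gsta4 fell and the other 3 did not pass the test. Gsta4 (chr9:78182774-78209349) is known for conjugating 4-hydroxynonenal, an aldehyde formed when membrane lipids are oxidised. It had 43.4, 70.6 and 33.6 CPM in HFHS livers, against 132, 99.5 and 136 CPM in chow livers (log2 fold change -1.32 ± 0.28 SE, edgeR adjusted p = 0.0244), with the highest HFHS library below the lowest chow library. Gsta3, the mouse enzyme that detoxifies aflatoxin epoxide, was the most abundant of the class at 1671, 1072 and 1609.8 CPM in HFHS livers, against 2973, 2112 and 3059.7 CPM in chow livers. It missed the threshold (log2 fold change -0.90 ± 0.26 SE, edgeR adjusted p = 0.0562) although the groups did not overlap, and DESeq2 called it lower. Gsta2 had 8.78, 53.5 and 7.93 CPM in HFHS livers, against 73.8, 73.7 and 108 CPM in chow livers (log2 fold change -1.85 ± 0.77 SE, edgeR adjusted p = 0.161), and Gsta1 had 0.619, 23.6 and 1.117 CPM in HFHS livers, against 1.89, 1.37 and 2.22 CPM in chow livers (log2 fold change 2.23 ± 1.35 SE, edgeR adjusted p = 0.306). In HFHS replicate 2, Gsta1 was 27.2 times and Gsta2 6.41 times the mean of the other HFHS libraries. Without that library the log2 fold change was -3.34 for Gsta2, which then was called lower, and -1.06 for Gsta1, which was not. The annotated rows Gm3776 and Gm10639, in which 82.9% and 30.8% of the 50-base stretches of Gsta1 also occur, had 9, 252 and 9 and 0, 31 and 0 counts in HFHS livers, against 45, 18 and 47 and 1, 0 and 2 counts in chow livers. They were thus also highest in HFHS replicate 2. The sum of Gsta1 and Gsta2 overlapped between the groups. The Gsta4 call was lost with library size only and with the replicate number as a block. It was also lost without HFHS replicate 1 and without any 1 chow replicate. The highest adjusted p of Gsta4 over the edgeR, DESeq2 and limma alternatives was 0.0941.

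The mu class, which conjugates a wide range of epoxides and quinones, holds 7 members in 149.1 kb of chromosome 3 (chr3:107895821-108044894). All 7 were tested and 1 fell. Gstm6 (chr3:107938847-107943749) had 66.9, 50.2 and 78.3 CPM in HFHS livers, against 162, 129 and 149 CPM in chow livers (log2 fold change -1.17 ± 0.18 SE, edgeR adjusted p = 0.0120), with no overlap between the groups. It was the member with the smallest adjusted p, and its call was lost in 1 of 13 alternatives, without chow replicate 3, at an edgeR adjusted p of 0.0619. Gstm7 had 53.9, 24.7 and 43.3 CPM in HFHS livers, against 70.7, 70.4 and 65.1 CPM in chow livers and did not pass (log2 fold change -0.76 ± 0.26 SE, edgeR adjusted p = 0.0890). DESeq2 called it lower (adjusted p = 0.0292), as did edgeR at -1.02 without HFHS replicate 1 (adjusted p = 0.0450) and at -0.49 without HFHS replicate 2 (adjusted p = 0.0480). Gstm1 had 952, 2415 and 1095 CPM in HFHS livers, against 1466, 1249 and 1360.2 CPM in chow livers (log2 fold change 0.13 ± 0.36 SE, edgeR adjusted p = 0.834), and Gstm3 had 59.5, 379.9 and 69.0 CPM in HFHS livers, against 86.8, 49.8 and 68.0 CPM in chow livers (log2 fold change 1.31 ± 0.75 SE, edgeR adjusted p = 0.283). In both, HFHS replicate 2 was the highest of the 6 libraries, and without it the log2 fold change was -0.40 for Gstm1 and -0.08 for Gstm3. Gstm2, Gstm4 and Gstm5 had log2 fold changes of -0.10 ± 0.38, -0.15 ± 0.22 and 0.05 ± 0.14 and overlapping groups, and that of Gstm4 was -0.38 without HFHS replicate 2.

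The theta class, enzymes that act on small halogenated compounds among others, lies in 63.3 kb of chromosome 10. Of 3 members tested, Gstt2 and Gstt3 fell. Gstt3 (chr10:75774115-75781414) had 64.4, 16.5 and 61.8 CPM in HFHS livers, against 230.1, 142 and 245 CPM in chow livers, the largest fall of any member called (log2 fold change -2.11 ± 0.52 SE, edgeR adjusted p = 0.0419). HFHS replicate 2 was lowest, at 0.262 times the mean of the other HFHS libraries, which themselves lay below every chow library. Gstt2 (chr10:75831114-75837424) had 45.7, 49.8 and 79.0 CPM in HFHS livers, against 104, 93.6 and 137 CPM in chow livers (log2 fold change -0.94 ± 0.24 SE, edgeR adjusted p = 0.0418), again with no overlap. Gstt1 had 233, 124 and 280.0 CPM in HFHS livers, against 393, 305 and 392 CPM in chow livers and did not pass (log2 fold change -0.78 ± 0.29 SE, edgeR adjusted p = 0.115), with groups that did not overlap. Its log2 fold change was -0.49 without HFHS replicate 2, and DESeq2 called it lower (adjusted p = 0.0365). The calls of Gstt2 and Gstt3 were both lost without HFHS replicate 1 and without any 1 chow replicate, that of Gstt2 also without HFHS replicate 2 and that of Gstt3 without HFHS replicate 3, with no filter on low counts and with at least 10 summed counts. Both were called lower in the other settings, except Gstt2 with library size only. The highest adjusted p over the edgeR, DESeq2 and limma alternatives was 0.138 for Gstt2 and 0.128 for Gstt3.

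Of the remaining classes, Gsto1 fell. Gsto1 (chr19:47854970-47864790), an omega-class thioltransferase that also reduces dehydroascorbate, had 44.5, 59.9 and 77.2 CPM in HFHS livers, against 98.3, 111 and 133 CPM in chow livers (log2 fold change -0.92 ± 0.21 SE, edgeR adjusted p = 0.0304), with no overlap between groups. Its call was lost without HFHS replicate 1 or 2 and without any 1 chow replicate, and its highest adjusted p over the edgeR, DESeq2 and limma alternatives was 0.112. Gstz1, the maleylacetoacetate isomerase of tyrosine breakdown, had 736, 451 and 823 CPM in HFHS livers, against 1035, 852 and 994 CPM in chow livers (log2 fold change -0.52 ± 0.25 SE, edgeR adjusted p = 0.196). Gstk1, the kappa-class enzyme of mitochondria and peroxisomes, had 97.8, 57.6 and 147 CPM in HFHS livers, against 191, 138 and 172 CPM in chow livers (log2 fold change -0.73 ± 0.32 SE, edgeR adjusted p = 0.167). Neither passed, and HFHS replicate 2 was the lowest library of both. Without it the log2 fold change was -0.44 for Gstk1 and -0.29 for Gstz1. Without HFHS replicate 3 Gstk1 was called lower, at -1.11 and an edgeR adjusted p of 0.0379. In the pi class, Gstp1 had 231, 235 and 137 CPM in HFHS livers, against 144, 514 and 203 CPM in chow livers, with chow replicate 2 above every other library. Its log2 fold change was -0.51, and 0.20 without that library. Gstp2 had 2.79, 3.69 and 2.96 CPM in HFHS livers, against 2.00, 10.7 and 22.7 CPM in chow livers (log2 fold change -1.89 ± 0.76 SE, edgeR adjusted p = 0.142). DESeq2 called Gstp2 lower (adjusted p = 0.0182), as did edgeR at -2.41 without chow replicate 1 (adjusted p = 0.0242), and its log2 fold change was -1.02 without chow replicate 3. Gstp3 had 19.3, 31.0 and 18.1 CPM in HFHS livers, against 21.1, 17.5 and 18.3 CPM in chow livers (log2 fold change 0.27 ± 0.22 SE, edgeR adjusted p = 0.431), and a log2 fold change of -0.01 without HFHS replicate 2. The sum of Gstp1 and Gstp2 overlapped between groups.

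Members differed in which HFHS library stood out. HFHS replicate 2 was the highest HFHS library in 13 of the 37 members tested and the lowest in 17. It was at least 2 times the mean of the other HFHS libraries in 6 members: Gsta1, Gsta2, Gstm1, Gstm3, Ugt1a7c and Ugt1a9. It was at most 0.5 times that mean in 7: Gstk1, Gstt1, Gstt3, Ugt1a5, Ugt2b1, Ugt2b37 and Ugt2b38. In the chow group, replicate 2 was at least 2 times the mean of the others in Gstp1 and Ugt2b38. The highest library was a median 1.83 times the lowest within the HFHS group and 1.38 times within the chow group, over the same 37 members. The same values over all genes tested are not given here, so these cannot be taken as particular to the members.

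**Figure D4:**
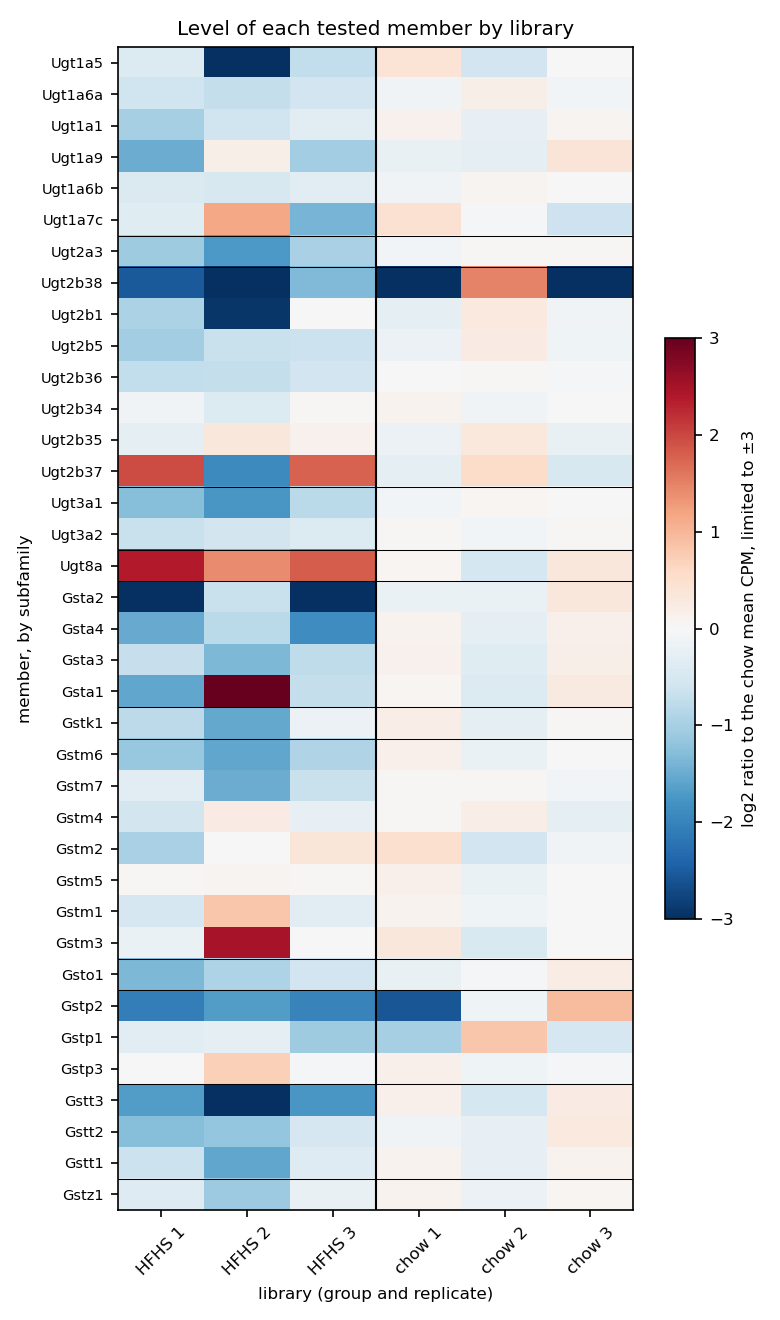
Log2 ratio of each library's level to the chow mean (colour) for the 37 members tested (rows) in 3 HFHS and 3 chow liver libraries (columns). HFHS replicate 2 is the highest HFHS library for Gsta1, Gsta2, Gstm1 and Gstm3 and the lowest for Ugt1a5, Ugt2b1, Ugt2b38 and Gstt3.

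Promoters were read from RefSeq for build GRCm38.p6, each from 250 bases before to 50 bases after a start that RefSeq annotates, which need not be the GENCODE start. The window of Ugt3a1 lies inside the span that GENCODE gives the gene. Of the 43 members, 39 matched an entry, with 47 windows. HNF1, a liver transcription factor, is known to act on several Ugt promoters, and the core of its site is GTTAAT. Searched on both strands, GTTAAT was in 7 of the 47 member windows, and in 7.1% of all 32851 promoter windows. The 7 windows were of 7 members (Gsta3, Ugt1a1, Ugt1a6a, Ugt1a9, Ugt1a10, Ugt2a3 and Ugt3a1). Of the 8 members called lower that had an entry, 3 held it, as did 4 of the 31 others. The 3 are shown because they fell and hold the motif, which is in capitals (ATTAAC where it is on the other strand).
Ugt1a6a, chr1:88134559-88134858, plus strand: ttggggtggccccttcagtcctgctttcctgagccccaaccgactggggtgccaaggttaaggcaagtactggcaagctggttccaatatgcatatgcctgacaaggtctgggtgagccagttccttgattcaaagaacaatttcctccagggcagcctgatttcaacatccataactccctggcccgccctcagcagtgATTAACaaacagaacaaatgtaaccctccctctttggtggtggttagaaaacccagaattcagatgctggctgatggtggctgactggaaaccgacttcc
Ugt2a3, chr5:87337146-87337445, minus strand: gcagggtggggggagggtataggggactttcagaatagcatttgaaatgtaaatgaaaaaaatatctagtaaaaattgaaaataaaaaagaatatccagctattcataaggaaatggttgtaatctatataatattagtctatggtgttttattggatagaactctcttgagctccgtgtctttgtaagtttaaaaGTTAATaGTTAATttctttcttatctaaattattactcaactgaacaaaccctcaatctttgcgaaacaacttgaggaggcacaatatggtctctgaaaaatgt
Ugt3a1, chr15:9279579-9279878, plus strand: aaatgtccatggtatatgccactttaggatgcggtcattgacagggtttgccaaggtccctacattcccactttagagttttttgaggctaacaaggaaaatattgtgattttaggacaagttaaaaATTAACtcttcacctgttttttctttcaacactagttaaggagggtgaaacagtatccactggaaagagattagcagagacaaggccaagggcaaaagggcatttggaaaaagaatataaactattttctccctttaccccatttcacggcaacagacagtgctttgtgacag
Of the windows shown, that of Ugt2a3 holds 2 copies and the others 1 each. The core bound by NRF2, TGACNNNGC, was in 3 of the 47 member windows (Gsta3, Gstm5 and Gstm7) and in 12.4% of all windows. The core bound by the aryl hydrocarbon receptor, GCGTG, was in 9 of the 47 member windows, of 8 members, and in 32.4% of all windows. It can overlap the last bases of TGACNNNGC. A match is a description of the letters and not a binding site, and a window without one says nothing of the factor.

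The genes that work beside these enzymes were also read, from lists of cofactor supply, conjugate transport, receptors and their targets. Of 77 such genes 63 were tested, 4 rose and 5 fell, with a median log2 fold change of -0.21. These counts stand beside 11.0% of all genes called higher and 3.61% called lower. The count of genes higher was 2, 0 and 0 when chow replicates 1, 2 and 3 were left out in turn (edgeR, 9, 8 and 6 at an unadjusted p under 0.05), and the count lower was 11 without HFHS replicate 2, 3 without chow replicate 1 and 1 without chow replicate 3.

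For glucuronidation, Ugdh, which makes UDP-glucuronate, fell, at 171, 237 and 162 CPM in HFHS livers, against 317, 348 and 316 CPM in chow livers (log2 fold change -0.78 ± 0.18 SE, edgeR adjusted p = 0.0299). Gusb, the lysosomal enzyme that removes glucuronic acid, rose, at 54.2, 69.0 and 46.7 CPM in HFHS livers, against 35.0, 33.0 and 35.0 CPM in chow livers (log2 fold change 0.72 ± 0.15 SE, edgeR adjusted p = 0.0223). In both the groups did not overlap. The other 3 genes of this list of 5 did not pass. With library size only, Ugdh was not called and 0 genes of the list were lower.

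For glutathione, 1 of 11 genes tested rose and none fell by edgeR (2 lower at an unadjusted p under 0.05, 1 called lower by DESeq2 and 0 by limma-voom). Ggt5, an enzyme that cleaves glutathione conjugates outside cells, had 6.19, 8.92 and 6.53 CPM in HFHS livers, against 3.50, 2.58 and 2.29 CPM in chow livers (log2 fold change 1.37 ± 0.24 SE, edgeR adjusted p = 0.0159). Gclc, which carries out the rate-limiting step of glutathione synthesis, had 210.1, 534 and 230.2 CPM in HFHS livers, against 279, 428 and 263 CPM in chow livers (log2 fold change 0.01 ± 0.39 SE, edgeR adjusted p = 0.992), with HFHS replicate 2 the highest library. Among the glutathione transferases that the symbol rule leaves out, 5 were tested and 1 rose by edgeR, while limma-voom called 0 higher. Hpgds, the sigma-class prostaglandin D synthase of immune cells, had 6.19, 17.6 and 5.92 CPM in HFHS livers, against 1.501, 0.769 and 1.41 CPM in chow livers (log2 fold change 3.02 ± 0.53 SE, edgeR adjusted p = 0.0160). Of 11 genes of sulfation, the parallel conjugation route, none passed the edgeR test, with a median log2 fold change of -0.64. At an unadjusted p under 0.05 edgeR had 1 higher and 2 lower, and DESeq2 called 1 higher and 2 lower, limma-voom 0.

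Among 9 conjugate transporters, Abcc1, an exporter of glutathione conjugates, rose (log2 fold change 1.98 ± 0.39 SE, edgeR adjusted p = 0.0198), and Slco1a4, an uptake carrier of organic anions and bile acids, fell (log2 fold change -1.71 ± 0.33 SE, edgeR adjusted p = 0.0204). Abcc1 had 5.37, 9.69 and 3.91 CPM in HFHS livers, against 1.61, 2.03 and 1.14 CPM in chow livers. Slco1a4 had 38.6, 57.6 and 26.3 CPM in HFHS livers, against 140.0, 92.0 and 168 CPM in chow livers. The groups did not overlap for either. With library size only, Slco1a4 was not called and 0 of the transporters were lower.

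None of the 11 receptors and regulators tested passed by edgeR (3 lower at an unadjusted p under 0.05, 2 called lower by DESeq2 and 0 by limma-voom). Nr1i3, which codes for CAR, had 99.7, 199 and 159 CPM in HFHS livers, against 295, 204 and 366 CPM in chow livers (log2 fold change -0.92 ± 0.30 SE, edgeR adjusted p = 0.0799), and Nr1i2, which codes for PXR, had a log2 fold change of -0.36 ± 0.29. Nfe2l2, which codes for NRF2, had a log2 fold change of 0.33 ± 0.15, and Ahr, the aryl hydrocarbon receptor, one of -0.56 ± 0.20. Of 11 target genes, the 3 that fell are cytochrome P450 genes induced through CAR and PXR. Cyp3a11 had 1693, 1688 and 1242 CPM in HFHS livers, against 5217, 6019.8 and 5254 CPM in chow livers (log2 fold change -1.83 ± 0.23 SE, edgeR adjusted p = 0.00867). Cyp2c55 had 44, 37 and 40 counts in HFHS livers, against 359, 418 and 244 counts in chow livers (log2 fold change -3.34 ± 0.23 SE, edgeR adjusted p = 0.00517). Cyp2b10 had 11, 3 and 1 counts in HFHS livers, against 85, 83 and 99 counts in chow livers (log2 fold change -4.43 ± 0.60 SE, edgeR adjusted p = 0.0101). It passed the filter on low counts only through the chow libraries, so that it had to differ between the groups to be tested. Its counts in HFHS replicates 2 and 3 stood at or under the 3 counts taken as the floor. The chow libraries of these 3 genes were all above their HFHS libraries. Nqo1, an NRF2 target, had 8.88, 48.7 and 12.2 CPM in HFHS livers, against 18.1, 8.30 and 18.1 CPM in chow livers (log2 fold change 0.66 ± 0.69 SE, edgeR adjusted p = 0.555), and HFHS replicate 2 was again the highest library.

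Markers of other cell types moved with the diet. All 5 macrophage markers rose and summed to 615 to 990.4 CPM in HFHS livers, against 201 to 280.1 CPM in chow livers. All 6 stellate-cell markers rose, at a sum of 420.0 to 835 CPM in HFHS livers and 150.2 to 198 CPM in chow livers. Of 5 endothelial markers 3 rose (199 to 262 CPM in HFHS livers, 136 to 169 CPM in chow livers). Of 5 cholangiocyte markers 4 rose (9.27 to 23.8 CPM in HFHS livers, 4.22 to 8.74 CPM in chow livers), with Cftr at 0 in chow replicates 1 and 2. Of these, Cftr, Krt7 and Krt19 passed the filter on low counts only through the HFHS libraries. They had to differ between the groups to be tested. Of 4 lymphocyte markers tested 1, Ptprc, rose, and the list summed to 31.7 to 79.0 CPM in HFHS livers and 8.46 to 15.5 CPM in chow livers. None of the 5 hepatocyte markers passed the edgeR test (2 lower at an unadjusted p under 0.05, 2 called lower by DESeq2), and all 5 had a negative fold change (median -0.70 in log2, beside -0.63 for the members tested). Of 4 markers of periportal hepatocytes, which surround the portal vein, 2 fell, Hal and Pck1, and the list summed to 1439.6 to 2838 CPM in HFHS livers and 5483 to 7172 CPM in chow livers. Of 4 markers of pericentral hepatocytes, 0 were called by edgeR (1 higher and 1 lower at an unadjusted p under 0.05, 1 called higher by DESeq2), and the list summed to 6658 to 13110.2 CPM in HFHS livers and 10028 to 16118 CPM in chow livers. HFHS replicate 2 had the highest macrophage, stellate, cholangiocyte and lymphocyte sums and the lowest hepatocyte sum. Its endothelial sum went the other way, as the lowest of the HFHS libraries (199 CPM). The part of cell makeup in the members' lower levels was not tested.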

How the data were processed

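Liver RNA of 3 HFHS and 3 chow samples was analysed, grouped by the diet label, with replicate numbers from the titles. Per the labels' protocols, polyadenylated RNA was isolated and libraries were made with a kit that marks strand. Per the submitters' processing notes, the authors aligned reads with STAR to mm10. Not given in the sources used here are the counter, its annotation, its strand setting and its rule for shared reads. The deposited values are raw counts per gene, without normalisation.

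Rows for reads outside genes (7.74% to 10.6% of all counts) and for ambiguous reads (0.615% to 0.862%) were left out. Every pair of replicates differed by more than sampling noise. Genes passing filterByExpr of edgeR (minimum count 10, 12949 of 17877 with a count) were scaled by TMM and tested with the robust quasi-likelihood F test (edgeR 4.0.16, limma 3.58.1, R 4.3.3). Standard errors are the log2 fold change over the square root of F. Alternatives were RLE or library-size scaling, no filter, at least 10 summed counts, DESeq2 1.42.0, limma-voom, a replicate block and leaving out each library. The procedure was tested on simulated data. Copies were compared by coding sequence (biopython 1.88, Python 3.11.15), in place of the protein identity first planned, because no protein table was used here. Coordinates come from GENCODE vM21 (mm10). Values by library are given for members past the threshold, the most abundant member of each subfamily and near copies of these, and for other members chosen after their values were seen (Gsta1, Gsta2, Gstm3, Gstm7, Gstp3, Gstt1, Ugt1a5, Ugt1a9, Ugt2b1, and the related rows Gm3776 and Gm10639). Of each partner list, members past the threshold and Gclc, Nqo1, Nfe2l2, Nr1i2, Nr1i3 and Ahr are named. The members and lists were chosen with earlier results of these data known.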

Additional observations from a re-analysis of the deposited data

How the results depend on the processing

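Deviations of same-numbered libraries correlated at -0.25, -0.17 and 0.03, and those of differently numbered libraries at -0.08 to 0.23. With 3 libraries per group, these values cannot show whether the replicate numbers pair the libraries. With the replicate block, edgeR called 7 members lower and 0 higher (18 and 1 at an unadjusted p under 0.05) and 282 genes lower in all. The calls of Gsta4, Ugt1a6b, Ugt2b5 and Ugt2b36 were lost there. Members called lower numbered 11, against 4 with library size only, 17 with DESeq2 and 0 to 12 with 1 library left out. The 1 higher call gave 0 under the block, without a filter, with at least 10 summed counts, with DESeq2 and with limma-voom (1 unadjusted in each), and 0 to 2 with 1 library left out. Partner genes called lower numbered 5, 11 with DESeq2, and 1 to 11 with 1 library left out. Those called higher numbered 4, and 0 to 5 with 1 library left out. Of all genes, 1428 were higher (4 to 1664 with 1 library left out, 4 without chow replicate 3). Those lower numbered 468, against 200 with library size only and 974 with DESeq2. With 1 library left out they numbered 2 to 772, with 2 without chow replicate 3. With library size only, summed ratios moved to 0.811 for all members, 0.841 for Gst, 0.773 for Ugt, 0.624 for Gsta, 0.759 for Ugt1a and 0.767 for Ugt3a, still below 1, although HFHS and chow libraries then overlapped in the Gst and Gstz sums. RLE scaling moved no count of calls by over 1.5 times. The cause of these changes was not tested. Low counts limit Ugt8a, and the unknown rule for shared reads limits single copies.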
